A study of Mus musculus and Homo sapiens with 22 samples.

Results

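The collagen genes were examined for binding of PROX1, a homeodomain transcription factor of hepatocytes. A member was any protein-coding gene whose symbol is Col, a number, a and a number, which gave 44 of 21829 protein-coding genes in the mouse annotation and 44 of 19663 in the human annotation. Of these symbols 43 were shared, Col6a4 was in the mouse annotation only and COL21A1 in the human annotation only. Binding was mapped with CUT&RUN, in which an antibody directs a nuclease to cut out the DNA around the bound protein, in 22 samples of 6 groups. Liver nuclei released by douncing came from wild-type C57BL/6J mice of 2 to 3 months without treatment and were stained with anti-Prox1 antibody (5 samples) or IgG (5 samples). Primary mouse embryonic fibroblasts (MEFs) of C57BL/6N embryos at E13.5 carried the lentiviruses FUW-rtTA and tetO-FLAG-mmProx1 and received 2 µg/ml doxycycline for 2 days before staining with anti-FLAG (3 samples) or IgG (3 samples). Hep3B, an established human hepatocellular carcinoma line, carried an inducible lentiviral human PROX1 with a FLAG tag, was selected as a stable line, received doxycycline for 2 days and was stained with anti-FLAG (3 samples) or IgG (3 samples).

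Each deposited list pooled the antibody samples of 1 group, so no value below has a spread between replicates and no test across samples was possible. The lists held 50159 peaks in liver, 40531 in MEFs and 14369 in Hep3B. They hold no read counts, so the sequencing depth behind them is unknown. Between liver and the cultures, tissue, antibody and the origin of PROX1, which is endogenous in liver and introduced in the cultures, differ together and cannot be told apart. MEFs and Hep3B share the antibody and the introduced PROX1 but differ in cell type and species, which cannot be told apart either. A marker check by promoter peaks found 6 of 6 hepatocyte markers in liver, 0 of 6 in MEFs and 0 of 5 in Hep3B, and 1, 6 and 0 of 6 fibroblast markers, beside 26.6%, 55.4% and 44.4% of all genes in the 3 lists. Hepatic stellate cell markers had one in 0, 2 and 2 of 6, liver endothelial markers in 0, 1 and 0 of 5 and cholangiocyte markers in 1, 2 and 3 of 5. Peaks record occupancy and not RNA, so these counts do not measure which cells were present.

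Collagens are triple-helical proteins of the extracellular matrix, built from 3 chains that may be products of the same gene or of different genes. Fibrillar collagens form the tensile fibrils of skin, tendon, bone and scar and are made mainly by fibroblasts, whereas type IV collagen forms the sheet of basement membranes beneath epithelia and around vessels. In liver, stellate cells and other mesenchymal cells are the main source of fibrillar collagen in fibrosis, and hepatocytes are known for making long forms of collagen XVIII. The members were divided into 11 fibrillar genes (types I, II, III, V, XI, XXIV and XXVII), 8 basement membrane genes (types IV, XV and XVIII) and 25 others, which comprise fibril-associated, beaded filament, network-forming, anchoring fibril and transmembrane collagens and the unclassified types XXVI and XXVIII.

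The sequences beneath the strongest collagen summit of each class and list are shown first, as examples of the bound DNA. Each line gives the 101 bases centred on the summit, which is the base with the highest significance in a peak, on the strand of the gene. Capitals mark matches on either strand to AGGTCA (the half-site of many nuclear receptors), TGACTCA (the AP-1 site), GGGCGG (the GC box), CCAAT, the core of the CTCF site or the PROX1 consensus with at most 2 mismatches.
liver, fibrillar, Col27a1 intron 3, chr4:63231222-63231322 (mm10, plus strand): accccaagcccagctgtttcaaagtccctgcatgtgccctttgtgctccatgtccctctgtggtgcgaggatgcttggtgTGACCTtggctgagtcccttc
liver, basement membrane, Col18a1 intron 2, chr10:77103880-77103980 (mm10, minus strand): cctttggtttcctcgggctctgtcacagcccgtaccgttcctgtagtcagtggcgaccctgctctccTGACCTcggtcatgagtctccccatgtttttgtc
liver, other, Col25a1 intron 2, chr3:130214774-130214874 (mm10, plus strand): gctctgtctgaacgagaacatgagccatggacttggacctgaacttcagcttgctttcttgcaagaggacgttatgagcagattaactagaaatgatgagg
MEF, fibrillar, Col27a1 intron 48, chr4:63319720-63319820 (mm10, plus strand): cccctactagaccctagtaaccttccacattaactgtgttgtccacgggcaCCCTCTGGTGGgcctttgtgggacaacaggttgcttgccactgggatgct
MEF, basement membrane, Col18a1 intron 6, chr10:77082646-77082746 (mm10, minus strand): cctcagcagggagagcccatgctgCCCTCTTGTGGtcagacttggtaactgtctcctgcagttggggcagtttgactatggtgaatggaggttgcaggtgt
MEF, other, Col23a1 intron 5, chr11:51539715-51539815 (mm10, plus strand): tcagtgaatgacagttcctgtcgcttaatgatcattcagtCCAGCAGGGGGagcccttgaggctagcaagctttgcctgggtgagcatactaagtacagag
Hep3B, fibrillar, COL1A1 intron 1, chr17:50200322-50200422 (hg38, minus strand): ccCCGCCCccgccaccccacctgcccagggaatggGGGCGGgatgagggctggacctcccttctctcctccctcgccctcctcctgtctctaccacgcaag
Hep3B, basement membrane, COL18A1 intron 2, chr21:45427798-45427898 (hg38, plus strand): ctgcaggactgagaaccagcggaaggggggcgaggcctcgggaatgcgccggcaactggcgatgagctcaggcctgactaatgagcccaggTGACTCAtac
Hep3B, other, COL21A1 intron 1, chr6:56370202-56370302 (hg38, minus strand): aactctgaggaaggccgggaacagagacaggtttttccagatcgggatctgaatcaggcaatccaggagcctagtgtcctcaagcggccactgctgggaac

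All 9 windows lay in introns. AGGTCA was in the liver windows of Col27a1 and Col18a1, the CTCF core in all 3 MEF windows, GGGCGG at 2 places in the COL1A1 window and TGACTCA in the COL18A1 window. The CTCF core was searched only after these windows had been read. A match is a description of the letters and does not show that a factor binds there.

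Promoter peaks were counted first, with a promoter peak defined as a summit within 1 kb of a transcription start site (TSS) of a protein-coding transcript. In liver 5 of 44 collagen genes had one (11.4%, 95% Wilson interval 4.95 to 24), beside 26.6% of all protein-coding genes. In MEFs 18 of 44 had one (40.9%, 27.7 to 55.6), beside 55.4%. In Hep3B 3 of 44 had one (6.82%, 2.35 to 18.2), beside 44.4%. The share of collagen genes was thus below that of all genes in each list, and in MEFs the interval reached the share of all genes. These intervals cover counting error over genes only.

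**Figure D1:**
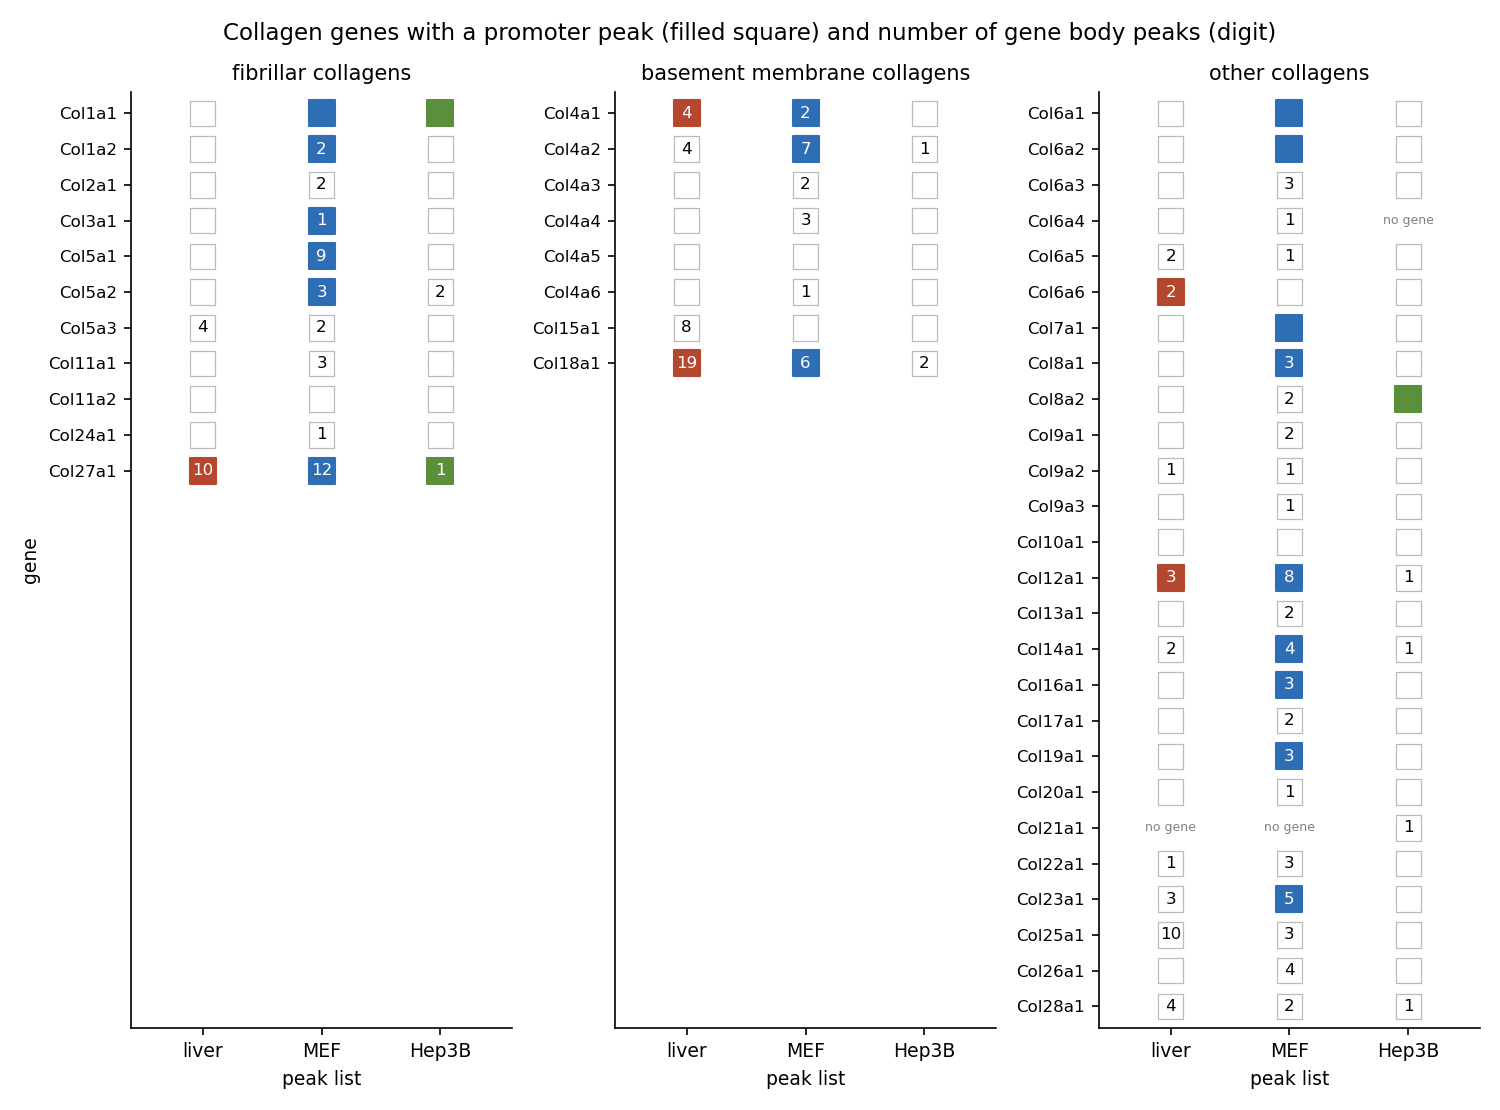
Collagen genes by class (rows) and peak list (columns). A filled square marks a promoter peak, an open square none, and the digit is the number of gene body peaks; 18 genes are filled in MEFs, 5 in liver and 3 in Hep3B, and Col27a1 is the only gene filled in all 3.

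The position of the start site mattered in liver and Hep3B. Several genes have protein-coding transcripts that begin deep inside the gene, and with only the outermost TSS counted, a choice made after seeing the data, 2 collagen genes remained in liver (all genes, 23.6%), 16 in MEFs (51.7%) and 1 in Hep3B (39.9%). The liver genes were Col12a1 and Col27a1 and the Hep3B gene was COL27A1. In MEFs Col1a2, whose summit lay 1.54 kb inside the outermost TSS, and Col19a1, at 1.02 kb, were no longer counted.

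Among the fibrillar genes, Col1a1, Col1a2, Col3a1, Col5a1, Col5a2 and Col27a1 had a promoter peak in MEFs (6 of 11, 54.5%, 28 to 78.7), Col27a1 alone in liver (1 of 11) and COL1A1 and COL27A1 in Hep3B (2 of 11). With a window of 500 bp the MEF count was 3, since the summits of Col1a1, Col1a2 and Col5a2 lay 803 to 906 bp from a TSS. Col1a1, which encodes the major chain of type I collagen, held the strongest collagen promoter peak of the MEF list, with a summit −log10 p of 8.86 that exceeded 95.5% of MEF peaks. That peak was 3774 bp wide (chr11:94935989-94939762, mm10), beside a median of 646 bp for the list, and its summit lay in intron 1, 906 bp inside the TSS. Col5a1, the type V chain that starts fibril assembly, followed with 8.56 (93.6th percentile) at a summit 135 bp upstream of its TSS. Col3a1, the type III chain of extensible tissues, reached 5.32 (31.7th percentile) at 55 bp upstream, and Col5a2 reached 4.26 (5.15th percentile) at 803 bp inside. The promoter peaks of the fibrillar genes in MEFs thus ranged from near the bottom to near the top of the list.

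In liver the genes of types I and III had no summit nearby. The summit nearest to any TSS of Col1a1 lay 87.5 kb away, that of Col1a2 94.7 kb away and that of Col3a1 503 kb away, and the median over the 11 fibrillar genes was 104 kb. In MEFs that median was 0.906 kb and in Hep3B 40.9 kb. Over all 44 genes the medians were 65.2, 1.76 and 48.8 kb in liver, MEFs and Hep3B. For basement membrane genes they were larger than for fibrillar genes in each list, 154, 29.6 and 96.0 kb. For other collagens they were 47.7, 1.78 and 56.4 kb. No median over all protein-coding genes stands beside these values. The lists differ in size and in the smallest area kept, 500 in liver and 200 in the cultures, and the part of these settings in the distances was not tested.

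COL1A1 carried the strongest collagen peak of the Hep3B list, 7.99 at the 84.7th percentile (chr17:50200210-50200921, hg38). Its summit lay 1.26 kb inside the outermost TSS, in intron 1 of 50, and 181 bp upstream of the start of the shorter transcript COL1A1-211, which made it a promoter peak. The MEF summit of Col1a1 was also in intron 1 of 50. An alignment of the 401 bases around both summits scored 20, below the 33 reached with a summit of another collagen gene, so the windows were not alike in sequence.

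Col27a1, which encodes a fibrillar chain of cartilage, was the only member with a promoter peak in all lists. The liver summit lay 70 bp and the MEF summit 78 bp upstream of the same TSS, and the human summit lay 169 bp upstream of the TSS of COL27A1. These peaks ranked low or midway in their lists, at the 18.5th percentile in liver (9.65), the 41.1st in MEFs (5.65) and the 26.7th in Hep3B (5.73). The mouse and human windows are printed because both hold a GC box, shown in capitals.
Col27a1, liver summit, chr4:63215315-63215415 (mm10, plus strand): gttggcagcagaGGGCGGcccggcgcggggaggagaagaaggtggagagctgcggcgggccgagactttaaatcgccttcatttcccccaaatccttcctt
COL27A1, Hep3B summit, chr9:114155318-114155418 (hg38, plus strand): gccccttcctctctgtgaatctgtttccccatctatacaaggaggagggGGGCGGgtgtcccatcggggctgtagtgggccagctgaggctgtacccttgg

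Among the basement membrane genes, Col4a1, Col4a2 and Col18a1 had a promoter peak in MEFs (3 of 8), Col4a1 and Col18a1 in liver (2 of 8) and none in Hep3B (0 of 8, upper Wilson limit 32.4%). Col4a1 and Col4a2 encode the chains of the common type IV collagen and lie head to head with a shared promoter. The MEF list held 1 peak on each side of it, of 6.07 (52.7th percentile) in intron 1 of Col4a1 and of 4.92 (20.2nd percentile) in intron 1 of Col4a2, and both count for both genes. The first lay 440 bp inside Col4a1 and 419 bp upstream of Col4a2. In liver this shared promoter had no peak. The liver call at Col4a1 came from a transcript that starts inside the gene, with the summit 33.1 kb inside (summit −log10 p 14.1, 67.7th percentile). Col4a3, Col4a4, Col4a5 and Col4a6, the chains of specialised basement membranes, had no promoter peak in any list.

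Col18a1 encodes collagen XVIII, the source of endostatin, and has separate promoters for its short and long forms. In MEFs 2 summits lay at the outermost start of the gene, 8 bp upstream and 902 bp inside. In liver no summit lay within 7.4 kb of that start, and the strongest promoter summit was 52.4 kb inside the gene, 240 bp upstream of the start of the transcript Col18a1-201 (chr10:77113507-77114892, mm10; 15.3, 76.0th percentile). Both lists also had a peak at the start of Col18a1-204, 76.9 and 77.0 kb inside, and these overlapped. The starts bound in liver and in MEFs therefore differed except at Col18a1-204. The 101 bases at the liver summit of Col18a1-201 held none of the letters searched, and the 200-base window around it held CCAAT.
Col18a1, liver summit, chr10:77114136-77114236 (mm10, minus strand): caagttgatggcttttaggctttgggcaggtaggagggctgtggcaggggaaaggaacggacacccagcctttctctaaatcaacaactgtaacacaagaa

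Of the 25 other collagen genes, 9 had a promoter peak in MEFs: Col6a1 and Col6a2 of the beaded filament, Col7a1 of the anchoring fibril, Col8a1 of the network-forming collagens, the fibril-associated Col12a1, Col14a1, Col16a1 and Col19a1, and the transmembrane Col23a1. Col12a1, whose product decorates type I fibrils, had the strongest, 6.41 (60.8th percentile), over 2961 bp of chr9:79717767-79720727 (mm10). In liver Col12a1 had 2 promoter peaks inside the same stretch, 11.1 and 9.68 (38.2nd and 18.9th percentiles). Col6a6 had 1 in liver at an internal start, with its summit 18.9 kb inside the gene. In Hep3B only COL8A2, the type VIII chain of the corneal basement membrane, had one, at an internal start. That peak reached 5.18 (11.5th percentile), with its summit 25.4 kb inside the gene. Just inside the 1 kb limit lay Col19a1 in MEFs at 959 bp, and just outside it lay a body peak of Col27a1 in liver at 1002 bp and of Col2a1 in MEFs at 1015 bp.

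**Figure D2:**
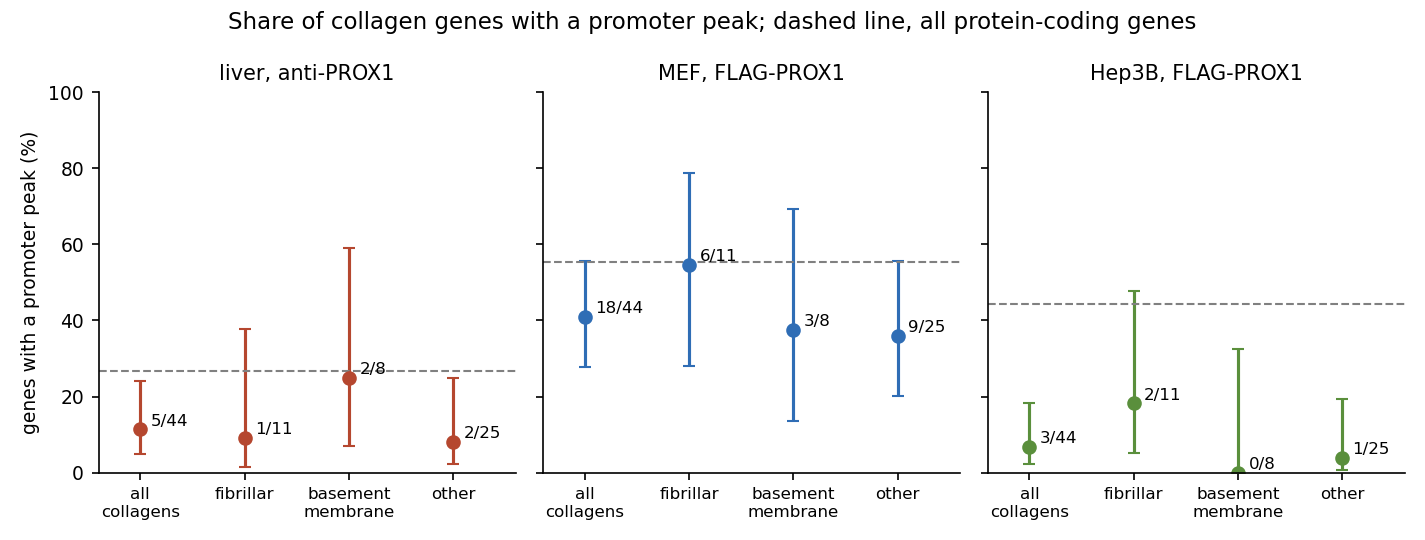
Share of genes with a promoter peak (percent) for all collagens and the 3 classes in each list, with 95% Wilson intervals and counts; the dashed line is the share of all protein-coding genes, 26.6% in liver, 55.4% in MEFs and 44.4% in Hep3B. Fibrillar genes sit close to the line in MEFs, at 54.5% (3 of 11 with a 500 bp window), and all collagens sit below it in each list.

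The promoter peaks of collagens were weaker than those of other genes in MEFs, with a median −log10 p of 5.32 over 21 peaks beside 6.70 over 12987 promoter peaks. Their median percentile was 31.7 beside 67.4. In liver the 7 collagen promoter peaks had a median of 11 beside 10.7, and the 3 in Hep3B had 5.73 beside 6.76. When each list was cut to its 14369 strongest peaks, 2 collagen genes kept a promoter peak in MEFs (Col1a1 and Col5a1), beside 33.9% of all genes, and 1 in liver (Col18a1), beside 4.98%.

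Gene body peaks, with a summit between the first and last base of the gene and not at a promoter of that gene, were more widespread. In MEFs 35 collagen genes had at least 1 (79.5%, beside 29.3% of all genes), in liver 15 (34.1%, beside 28.9%) and in Hep3B 8 (18.2%, beside 11.6%). With promoter and body peaks together the counts were 39 in MEFs (88.6%, beside 63.1%), 15 in liver (34.1%, beside 39.5%) and 10 in Hep3B (22.7%, beside 49.0%). Collagen genes are long, with a median length of 114 kb in the mouse and 145 kb in the human annotation, beside 17.4 and 27.3 kb for all genes, and a long gene catches more summits. Among genes of 100 kb or more, 23 of 26 mouse collagens had a peak in MEFs (88.5%, beside 88.9% of all such genes), 13 of 26 in liver (50.0%, beside 65.3%) and 8 of 26 human collagens in Hep3B (30.8%, beside 58.8%). Among genes under 100 kb, 16 of 18 mouse collagens had a peak in MEFs (88.9%, beside 59.8%), 2 of 18 in liver (11.1%, beside 36.2%) and 2 of 18 human collagens in Hep3B (11.1%, beside 46.8%). By any peak, long collagens were thus level with other long genes in MEFs, and short ones were above other short genes. In liver and Hep3B both were below. The match was partial, since short mouse collagens had a median length of 30.2 kb, beside 14.1 kb for all short mouse genes. In the human annotation these medians were 35.5 and 19.1 kb. By promoter peaks alone, both long and short collagens were below other genes of their length group in each list. In MEFs 42.3% of long collagens had one, beside 70.6% of all long genes, and 38.9% of short collagens, beside 53.4% of all short genes. In liver the long shares were 19.2% beside 32.8%, and the short ones 0% beside 25.9%. In Hep3B they were 3.85% beside 48.6% and 11.1% beside 43.5%.

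Per 100 kb of gene, collagens held 2.05 body peaks in MEFs (all genes, 1.39), 1.44 in liver (2.52) and 0.149 in Hep3B (0.246). Over all genes this rate was lower in long genes than in short ones in each list, and for collagens it was so in MEFs only. Among genes of 100 kb or more, collagens held 1.86 in MEFs (all such genes, 1.18), 1.52 in liver (1.99) and 0.168 in Hep3B (0.192). Among genes under 100 kb, they held 3.51 in MEFs (1.69), 0.798 in liver (3.28) and 0 in Hep3B (0.358). Over all lengths, the fibrillar class had the highest rate in MEFs, 3.35, beside 1.66 for basement membrane and 1.77 for other collagens. Of its 35 body peaks, 12 lay in Col27a1 and 9 in Col5a1, so the rate rested largely on these genes. In liver the order was different, with 2.76 for basement membrane, 1.34 for fibrillar and 0.917 for other collagens. The liver rate rested on types XV and XVIII, which together had 12.3 body peaks per 100 kb, whereas type IV had 0.764. In the human annotation the rates were 0.212, 0.206 and 0.105 and rested on 3, 3 and 4 peaks.

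Col18a1 had 19 body peaks in liver, the most of any member in any list, over a gene of 114.4 kb. With its promoter peaks, 17 of its 21 liver summits lay in intron 2, which also holds the start of Col18a1-201. These summits lay from 7.4 to 69.0 kb inside, so intron 2 is a large part of the gene. The strongest was 20.6 (96.1st percentile; chr10:77102949-77105546, mm10), 62.6 kb inside, and a summit of 20.5 (95.9th percentile) lay 47.8 kb inside. MEFs had 6 body peaks in the gene, of which the strongest, 8.60 (93.9th percentile; chr10:77082564-77083020, mm10), lay in intron 6 and overlapped a liver peak of 12.0 (47.7th percentile). COL18A1 had 2 peaks in Hep3B, both in intron 2, 1.44 and 22.7 kb inside.

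Col15a1, which encodes the related collagen XV, had 8 body peaks in liver between 26.9 and 87.6 kb inside the gene and none in MEFs or Hep3B. Of these 4 lay in intron 2, where the strongest reached 20.5 (95.9th percentile; chr4:47240651-47241608, mm10). The nearest MEF summit to any of its starts was 49.4 kb away. Col15a1 and Col6a6, a chain of the beaded filament with 3 liver peaks, were the only members with a liver peak and no MEF peak. In the other direction 26 members had a MEF peak and no liver peak, 13 had both and Col4a5, Col10a1 and Col11a2 had neither. Of the collagen genes with a peak in 1 of these lists only, 92.9% were in the MEF list, beside 84.8% of all such genes.

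**Figure D3:**
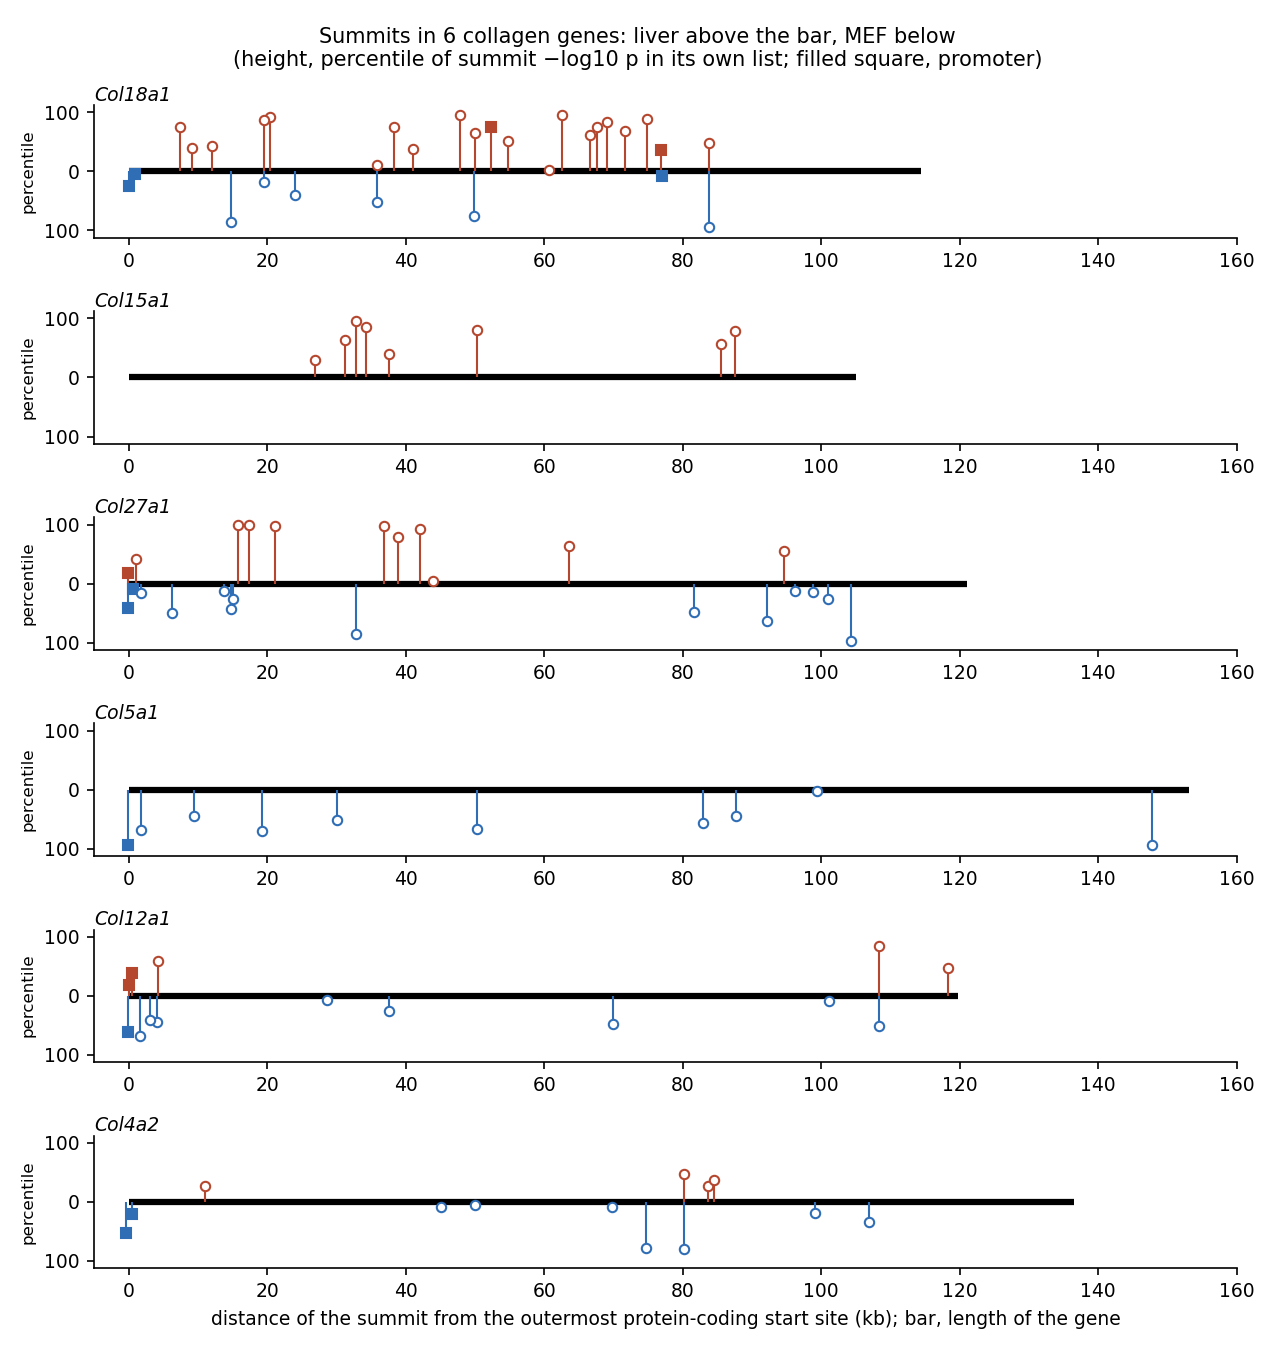
Summits along 6 collagen genes, by distance from the outermost start in kb; liver summits stand above the gene bar and MEF summits below it, their height is the percentile of −log10 p within the list, and filled squares are promoter peaks. Col18a1 has 21 liver and 9 MEF summits, Col15a1 has 8 liver and 0 MEF summits, and Col5a1 has 0 liver and 10 MEF summits.

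Col27a1 had 10 body peaks in liver and 12 in MEFs, the most of any member in MEFs. Its liver peaks included a run of 3 within 15.8 to 21.1 kb of the start, at the 98.6th, 98.5th and 98.2nd percentiles (22.9, 22.8 and 22.3), and a summit of 18.7 lay within 1 kb of the start of Mir455, a microRNA gene inside Col27a1. The strongest MEF peak was 9.30 (97.3rd percentile; chr4:63319526-63319830, mm10), 104 kb inside, where liver had none. Only 2 of the 12 MEF body peaks overlapped a liver peak.

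Col5a1 had 9 body peaks in MEFs and no peak in liver. The strongest of them, 8.66 (94.3rd percentile), lay in the last intron, 148 kb inside. Col12a1 had 8 body peaks in MEFs and 3 in liver, and Col4a2 had 7 and 4. Col5a3, the type V chain of restricted tissues, was the only fibrillar gene besides Col27a1 with liver peaks: it had 4, up to 22.7 (98.5th percentile). Col25a1, the longest mouse member at 468.4 kb and known from brain, had 10 in liver and 3 in MEFs, and its strongest liver peak, 25 (99.5th percentile; chr3:130214172-130215340, mm10), was the strongest at any collagen. Col28a1 had 4 liver peaks, all in intron 27 of 34, up to 23.2 (98.8th percentile).

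**Figure D4:**
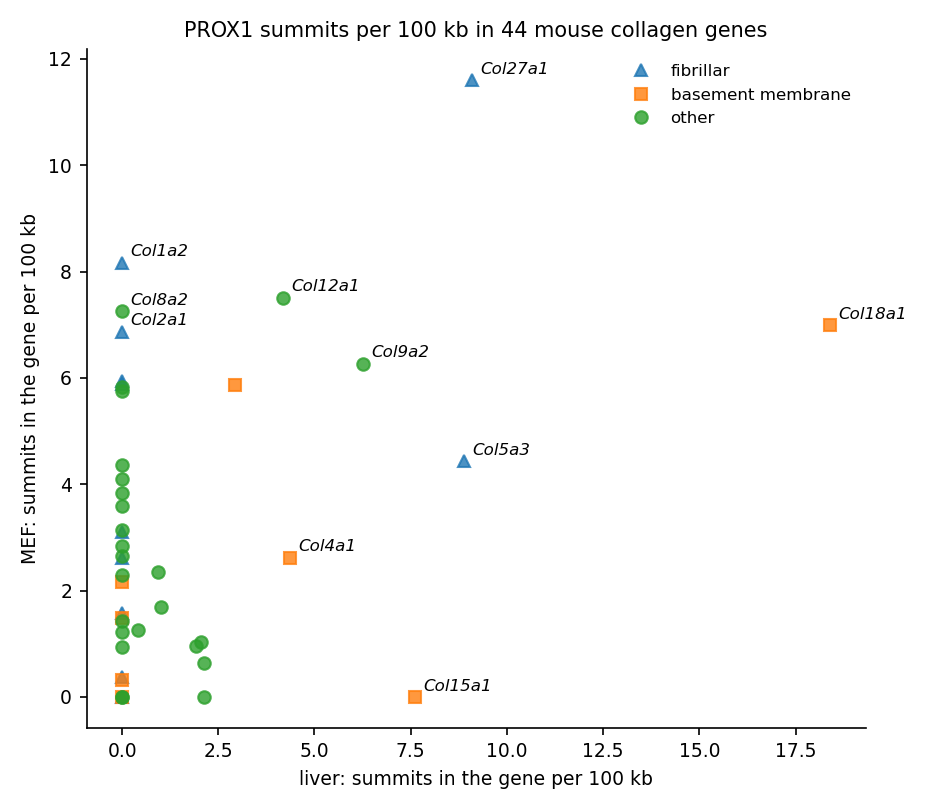
Summits per 100 kb of gene in liver (horizontal axis) and MEFs (vertical axis) for 44 mouse collagen genes, marked by class. Col18a1 lies far right at 18.4 in liver and 6.99 in MEFs, Col15a1 at 7.62 and 0, Col27a1 at 9.09 and 11.6, and Col1a2 at 0 and 8.17.

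The remaining members had few peaks. In liver Col23a1 had 3 body peaks, Col6a5 and Col14a1 had 2 each and Col9a2 and Col22a1 had 1 each, while 29 members had no peak. In MEFs Col23a1 had 5 body peaks, of which the 1 in intron 5 was the strongest at any collagen in that list, 9.81 (98.7th percentile; chr11:51539201-51540095, mm10), and overlapped a liver peak. Col26a1 and Col14a1 had 4 each. Col5a2, Col11a1, Col4a4, Col6a3, Col8a1, Col16a1, Col19a1, Col22a1 and Col25a1 had 3, Col1a2, Col2a1, Col4a1, Col4a3, Col5a3, Col8a2, Col9a1, Col13a1, Col17a1 and Col28a1 had 2, and Col3a1, Col4a6, Col6a4, Col6a5, Col9a2, Col9a3, Col20a1 and Col24a1 had 1. In Hep3B COL5A2 had 2 body peaks, both in intron 1, and COL4A2, COL12A1, COL14A1, COL21A1, COL27A1 and COL28A1 had 1 each, while 34 members had no peak.

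Most collagen summits were intronic. Of the body peaks, 73 of 77 in liver, 109 of 110 in MEFs and 10 of 10 in Hep3B lay in an intron. Neither the share for all genes nor the share of these genes that is intron was computed. The intron counts therefore describe position only and do not set collagens apart. Intron 1 held 4 of 77 in liver (5.19%), 4 of 10 in Hep3B (40.0%) and 20 of 110 in MEFs (18.2%), and the MEF peaks included all 3 body peaks of Col6a3 and 4 of those of Col5a1. With the window around a start widened to 5 kb, 26 collagen genes had a summit in MEFs (59.1%, beside 61.3% of all genes), 7 in liver (15.9%, beside 35.7%) and 6 in Hep3B (13.6%, beside 48.0%). In MEFs the distance from other genes at 1 kb was thus narrower at 5 kb.

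Peaks at collagens were compared between the mouse lists. By an overlap of at least 1 bp, 15 of 84 liver collagen peaks met a MEF peak (17.9%, 11.1 to 27.4, beside 18.9% of all liver peaks) and 15 of 131 MEF collagen peaks met a liver peak (11.5%, 7.06 to 18, beside 21.4%). Among body peaks alone the shares were 14.3% of the liver peaks (8.17 to 23.8, beside 9.49% for all genes) and 10.0% of the MEF peaks (5.68 to 17, beside 15.1%). Among promoter peaks 4 of 7 in liver (57.1%, beside 67.6%) and 4 of 21 in MEFs (19%, beside 35.7%) overlapped. The shared peaks lay in Col4a2, Col5a3, Col12a1, Col18a1, Col23a1 and Col27a1. With summits required within 100 bp, 5 were shared. At the level of genes, 13 of the 15 liver members with a peak also had one in MEFs (86.7%), beside 87.0% over all protein-coding genes, and 33.3% of the 39 MEF members had one in liver, beside 54.5%.

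Positions cannot be compared between the builds, so each Hep3B window of 401 bases was aligned with the 217 mouse collagen windows of both lists. For 7 of 13 Hep3B summits the best match was a mouse summit in the same gene. For 6 of these the score, 64 to 255, exceeded the highest score of any Hep3B window with a mouse window of another gene, 38, and for COL8A2 it was 38. The 6 were the promoter of COL27A1, intron 2 of COL27A1, intron 58 of COL12A1, intron 25 of COL28A1, intron 1 of COL5A2 and the summit in intron 2 of COL18A1 that lay 22.7 kb inside. In each intron the mouse summit was in the intron of the same number.

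Among these 7 sites, intron 58 of Col12a1 was the only gene body site whose mouse peaks overlapped between liver and MEFs, with 16.6 (84.0th percentile) in liver, 6.04 (51.7th) in MEFs and 4.96 (6.99th) in Hep3B. Over 245 aligned bases 82.9% were identical between human and mouse. The human summit aligned with a base 132 bp upstream of the liver summit, inside the liver peak and outside the MEF peak, which covers only the end of the mouse stretch shown. The stretch around the human summit is shown with its mouse counterpart, and capitals here mark the bases that are identical in the alignment. Both hold TGACTCA.
COL12A1, chr6:75098936-75099036 (hg38, minus strand): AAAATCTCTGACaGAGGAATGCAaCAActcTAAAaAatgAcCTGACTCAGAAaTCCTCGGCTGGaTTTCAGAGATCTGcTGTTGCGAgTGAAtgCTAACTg
Col12a1, chr9:79610518-79610621 (mm10, minus strand): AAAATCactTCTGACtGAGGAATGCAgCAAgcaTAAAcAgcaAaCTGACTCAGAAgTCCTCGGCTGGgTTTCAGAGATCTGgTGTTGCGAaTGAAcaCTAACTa

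The GC content at the start sites differed between bound and unbound genes, so the shares were also read within terciles of GC over the 250 bases on each side of the outermost TSS. In MEFs 12.2%, 58.0% and 85.3% of all genes in the lowest, middle and highest terciles had a peak there, beside 2 of 11, 6 of 18 and 8 of 15 collagens (18.2%, 33.3% and 53.3%). In liver the shares were 10.6%, 26.8% and 33.5%, beside 0 of 11, 0 of 18 and 2 of 15. In Hep3B they were 18.8%, 49.1% and 52.1%, beside 0 of 14, 1 of 12 and 0 of 18. The collagen share was below that of all genes in the middle and highest terciles of each list, and above it in the lowest tercile of MEFs. The median GC was 59.6% for mouse collagens and 57.4% for all mouse genes, and 65.3% and 62.4% in the human annotation.

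**Figure D5:**
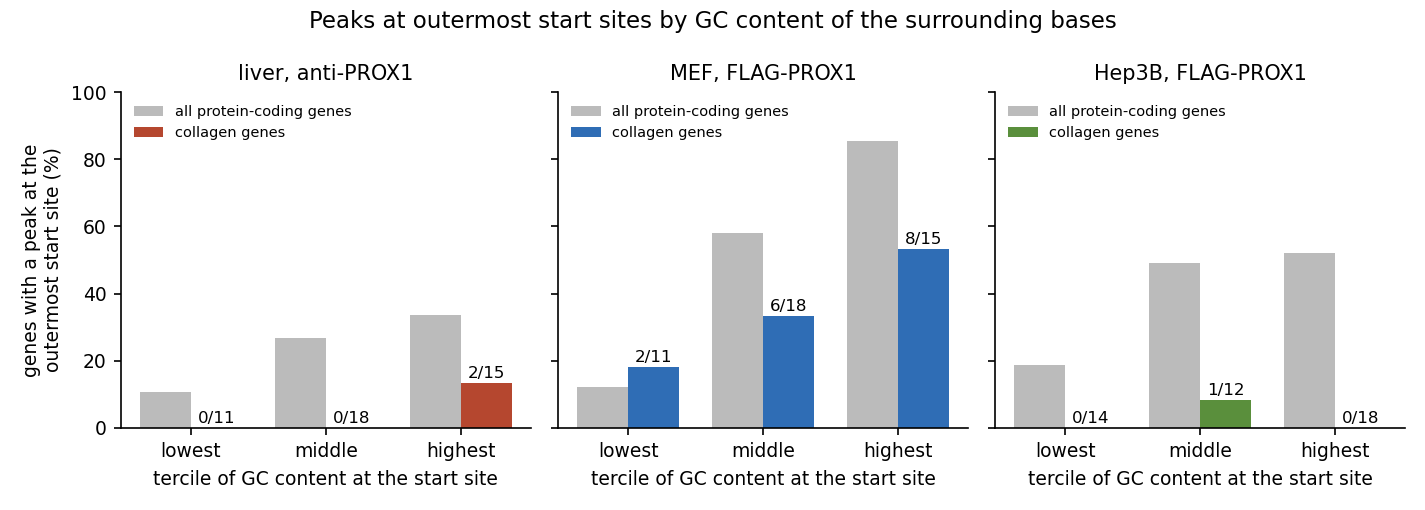
Share of genes with a peak at the outermost start (percent) by tercile of GC content, for all protein-coding genes (grey) and collagens (coloured, with counts). In the highest tercile 8 of 15 collagens have a peak in MEFs beside 85.3% of all genes, 2 of 15 in liver beside 33.5% and 0 of 18 in Hep3B beside 52.1%.

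The letters in the 200 bases around the summits were counted as a further description. AGGTCA was in 28 of 77 collagen body windows in liver (36.4%, 26.5 to 47.5), beside 27.3% of all liver body windows. TGACTCA was in 21 of 110 collagen body windows in MEFs (19.1%, 12.8 to 27.4), beside 14.9%, and in 7.79% of those in liver, beside 5.17%. GGGCGG was in 8 of 21 collagen promoter windows in MEFs (38.1%, 20.8 to 59.1), beside 55.4%, and CCAAT in 2 of 21 (9.52%, 2.65 to 28.9), beside 30.0%. The CTCF core was in 16.4% of collagen body windows in MEFs, beside 20.6%, and in 6.49% in liver, beside 5.45%.

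The PROX1 consensus was rare at collagens as in the lists at large. It is not the authors' matrix, and its share in unbound sequence was not computed, so a match may be a random one. The consensus was in 3 of 84 windows in liver (3.57%, beside 4.19% of all summits) and 4 of 131 in MEFs (3.05%, beside 2.91%). In Hep3B it was in 0 of 13 (beside 2.99%), a count that allows up to 22.8% by its Wilson interval. The liver windows with a match were body peaks of Col4a1, Col6a6 and Col14a1. The MEF windows with a match were the shared promoter of Col4a1 and Col4a2, the promoters of Col8a1 and Col14a1 and a body peak of Col5a1.

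The genes that handle collagen were counted in the same way. The lists covered enzymes and chaperones, processing and crosslinking, receptors, breakdown, basement membrane partners and fibril partners. Over these lists 52 of 72 genes had a promoter peak in MEFs (72.2%, beside 55.4% of all genes). In liver 12 of 72 had one (16.7%, beside 26.6%) and in Hep3B 21 of 73 (28.8%, beside 44.4%). The enzymes and chaperones of collagen folding were the most often bound, with 17 of 18 in MEFs, 5 of 18 in liver and 12 of 18 in Hep3B. The liver count of this group was close to the share of all genes, 26.6%. P4hb, the common subunit of prolyl hydroxylase, had a peak in all 3 lists and in Hep3B exceeded 99.5% of peaks (9.65). Ppib, a prolyl isomerase, and P3h1, a prolyl hydroxylase, reached the 97.5th and 97.3rd percentiles in MEFs (9.38 and 9.32), and Plod3, a lysyl hydroxylase, reached the 98.8th percentile in Hep3B (9.20). Serpinh1, the collagen chaperone HSP47, had a promoter peak in MEFs and Hep3B and none in liver.

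A gene counts as bound here when it had a promoter peak. The basement membrane partners were bound in MEFs in 13 of 15, including the laminin chains Lama1 and Lamc1 and Hspg2, which encodes perlecan. In liver 1 of 15 was bound, Lamb3. In Hep3B 4 of 15 were bound: Lamb2, Lamc1, Hspg2 and Agrn. With body peaks counted too, 14 of these 15 genes had a peak in MEFs, 11 in liver and 5 in Hep3B. Of all genes 63.1%, 39.5% and 49.0% had one. Over all the role lists these counts were 65 of 72, 32 of 72 and 30 of 73. Gene length was not matched in these counts. Of all genes 55.4% were bound in MEFs, 26.6% in liver and 44.4% in Hep3B. Of the fibril partners 6 of 11 were bound in MEFs, close to the share of all genes. Fn1, fibronectin, was the only 1 of 11 in liver and in Hep3B. Genes of processing and crosslinking were bound in 7, 2 and 2 of 11 in MEFs, liver and Hep3B. Receptors were bound in 6, 2 and 2 of 8, and genes of the breakdown list in 3 of 9, 1 of 9 and 0 of 10. That list holds proteases together with the protease inhibitors Timp1 and Timp2 and the collagen receptor Mrc2. Its bound genes in MEFs were Mmp2, Mmp14 and Timp2. The count of receptors in liver was close to the share of all genes too. Bmp1, which removes the C-terminal propeptide of fibrillar procollagen, was bound in liver (18, 89.5th percentile) and in MEFs.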

How the data were processed

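CUT&RUN libraries were sequenced by the authors, trimmed with Trim Galore 0.6.6 and aligned with Bowtie2 2.4.2 to mm10 or hg38. Consensus peaks over the antibody samples of a group were called with Genrich 0.6.1 at mapping quality 30, a peak length of at least 5 bp and q below 0.3. Versions are from the submitters' processing notes. The study describes the sites as called relative to IgG, the stated command does not show how IgG entered, and the IgG samples were not analysed here. Each deposited list holds, per peak, a score capped at 1000, an area (a signal summed over the peak), the −log10 p and −log10 q at the summit and the summit offset, as the authors' caller wrote them. These values were not normalized between lists, so strength was read as a percentile within a list. The deposited score was not used, since 99.9% of liver peaks were at the cap.

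Summits were assigned with Python 3.11.15, numpy 2.4.6 and pandas 2.3.3 to protein-coding genes of GENCODE M21 (mouse) and 44 (human), 1 per symbol and without the mitochondrial genome. Gene and intron positions are from these annotations, with introns numbered in the widest transcript that has the position in an intron. A promoter peak had its summit within 1 kb of a protein-coding TSS, and a body peak lay within the gene and not at its promoter. Bases were read with pysam 0.24.0 from references of the same builds, on which all peaks lay. The PROX1 consensus was a 12-bp form written from general knowledge and is not the authors' matrix. Local alignments of 401-bp windows scored 2 for a match, −3 for a mismatch, −5 for opening a gap and −2 for extending it. The assignment was tested on simulated peaks. Wilson intervals (95%) cover counting error over genes or windows only. No p-value was computed. Members with the strongest promoter and body peak of each class and list, those bound at the promoter in all lists and the 3 with most body peaks per list are described with positions, and all others by name. Members and gene lists were chosen with earlier results of these data known. Alternatives covered the q limit, list size, area floor, promoter window, TSS set, use of the whole peak, overlap rule and class definition. Columns left unused that hold values per sample: 0.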

Additional observations from a re-analysis of the deposited data

How the results depend on the processing

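Counts were recomputed under each alternative. Several settings leave a list as it was (both q limits and the area floor for liver, equal list size for Hep3B), so an equal count there says nothing of stability. Counts that moved by over 1.5 times are given in the order all, fibrillar, basement membrane and other collagens with a promoter peak. With the same number of strongest peaks from each list, liver gave 1, 0, 1 and 0 and MEFs 2, 2, 0 and 0, genes with a promoter or body peak fell to 9 in liver and 20 in MEFs, and 0 MEF collagen peaks overlapped a liver peak. With the area floor of the liver list, MEFs gave 11 in all and 5 others, Hep3B 1 in all, 1 fibrillar and 0 others, genes with any peak were 22 in MEFs and 1 in Hep3B, and 5 MEF peaks overlapped. With q below 0.01 Hep3B had 0 others. A 500 bp window left 3 fibrillar genes in MEFs, and a 2 kb window gave Hep3B 5 in all, 1 basement membrane and 2 others. The outermost TSS alone, added after seeing the data, gave liver 2 in all, 0 basement membrane and 1 other, and Hep3B 1 in all, 1 fibrillar and 0 others. Summits within 100 bp left 5 shared MEF peaks, and type IV alone as basement membrane left 1 in liver. The cause of these shifts was not tested beyond what each setting removes. The collagen share of promoter peaks stayed below that of all genes in every list under each setting for which both were computed, including those that leave a list as it was.

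No paired analysis was possible because each deposited list pools the antibody samples of a group, so replicate numbers do not enter. Leaving out a replicate could not be run for the same reason. Without replicate lists, read counts or IgG lists, the spread between samples and the background of each site are unknown. A gene without a peak has no call at these thresholds, which does not show that PROX1 was absent there. Read depth per list is unknown.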
